A study of Arabidopsis thaliana with 30 samples.

Results

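A set of 120 probe sets was followed whose signal in root explants of Arabidopsis thaliana stood higher at 12 h of callus induction than at either end of the time course. They were taken from the 13499 probe sets of the ATH1 array that name 1 gene, after leaving out control probe sets and symbols that begin with EXP. The score of a probe set was its mean log2(signal + 22) in root explants at 12 h minus the larger of its means at 0 h and 96 h, and the 120 highest scores were kept. Signal is the MAS5 intensity of a probe set on 1 array, and 22 is added before the logarithm so that dim values do not dominate. The members' scores ran from 1.36 to 4.61 with a median of 1.81 on the log2 scale. They stand for 119 genes, since AT5G04310 is read by 2 probe sets. The members were thus selected on the root arrays of 0, 12 and 96 h, whose values are described here with no test, and the tests use the aerial arrays and the root arrays of 24 and 48 h.

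The plants were wild-type Columbia-0 seedlings, 10 days old, raised at 22 °C under 16 h of light and 8 h of dark. Root segments or aerial organs were cut from them and laid on a medium that induces callus. After 0, 12, 24, 48 or 96 h, total RNA was hybridised to 30 arrays, 3 for each organ and time. The labels call the 3 arrays of a group biological replicates and do not say how many seedlings each holds. All 10 groups share the genotype, and the 0 h explants are the reference of each organ. Cutting, transfer and the medium itself thus cannot be told apart in a change from 0 h. At 12 h, the time that chose the members, time of day cannot be told apart from them either. The other times, 24, 48 and 96 h, are whole days after 0 h. In these mixed tissues, fewer cells of a type and less RNA per cell cannot be told apart either.

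Callus is a mass of dividing cells that plant tissue forms on media with auxin and cytokinin. In Arabidopsis, callus of roots and of aerial organs is known to start from pericycle or pericycle-like cells around the vascular strands and to pass through a state that resembles an early lateral root, with LBD transcription factors acting downstream of auxin. Cut tissue is also known for fast stress, detoxification, defence and wall-loosening responses, many of which fade again. The members are described below by these roles, which are general knowledge of the proteins and not read from the arrays.

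The arrays had median signals of 139.1 to 182.7, and arrays of 1 group correlated at 0.932 to 0.977 (r across tested probe sets). Tests were run on the 16765 probe sets with 3 or more arrays above a signal of 87.4, among them 113 of the 120 members. Of those 113, 2 passed only through their 12 h root arrays, and 26 of all members had every aerial group mean below 87.4. The organ labels were checked with marker genes. The summed signal of 7 measured leaf photosynthesis genes ran from 132600 to 182500 in aerial explants at 0 h and did not exceed 797.6 on any root array. That of 4 measured root identity genes ran from 1255 to 2280 in root and from 484.4 to 1493 in aerial explants at 0 h, so the organs overlapped. Of these 4, the peroxidase genes AT1G30870 and AT3G49960 are members, and their aerial signals at 0 h were no higher than 99.6 and 7.4. The list was mixed at later times. At 24 h 2 of its genes were called higher in root and 1 higher in aerial explants, and at 48 h 2 and 2. The members were the 2 higher in root each time, so the list does not check the labels. In root explants at 24 h and at 48 h the first replicate array stood low for the members. Its values were the lowest of the 3 for 82 members at 24 h and for 89 members at 48 h. On the aerial side the first 12 h replicate was the lowest of its group for 78 members.

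The median of the 120 members' mean signals in root explants was 184.9 at 0 h, 1064 at 12 h and 147.9 at 96 h. The mean was highest at 12 h for 88 members, at 24 h for 30 and at 48 h for 2, so the set holds 32 genes whose root maximum came after 12 h. Taking the score as 100% of the 12 h height, the median member kept 69.8% of it at 24 h and 28.2% at 48 h. The quartiles ran from 44.0% to 102.6% at 24 h and from -1.93% to 51.1% at 48 h. At 48 h, 33 members had no height left above their higher end point. The higher end point was 0 h for 76 members and 96 h for 44.

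**Figure D1:**
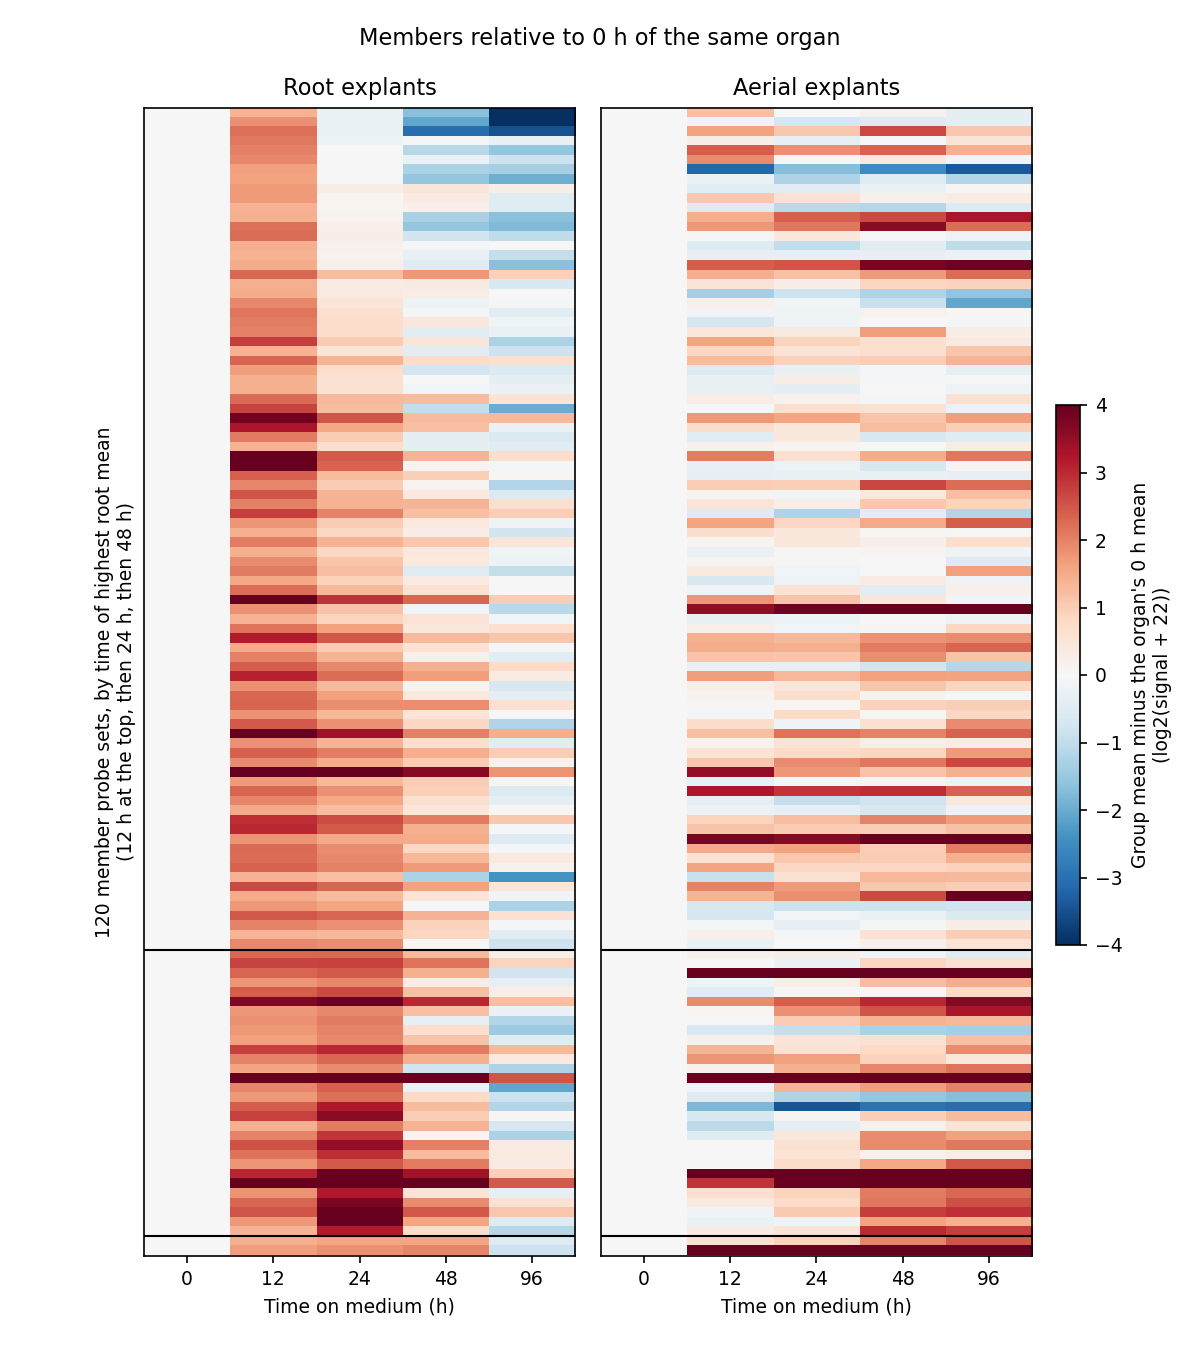
Each row is 1 of the 120 member probe sets and each column a time on the medium in hours, with root explants on the left and aerial explants on the right. Colour gives the group mean of log2(signal + 22) minus the 0 h mean of the same organ, and black lines separate the 88 members highest at 12 h, the 30 highest at 24 h and the 2 highest at 48 h in root.

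**Figure D2:**
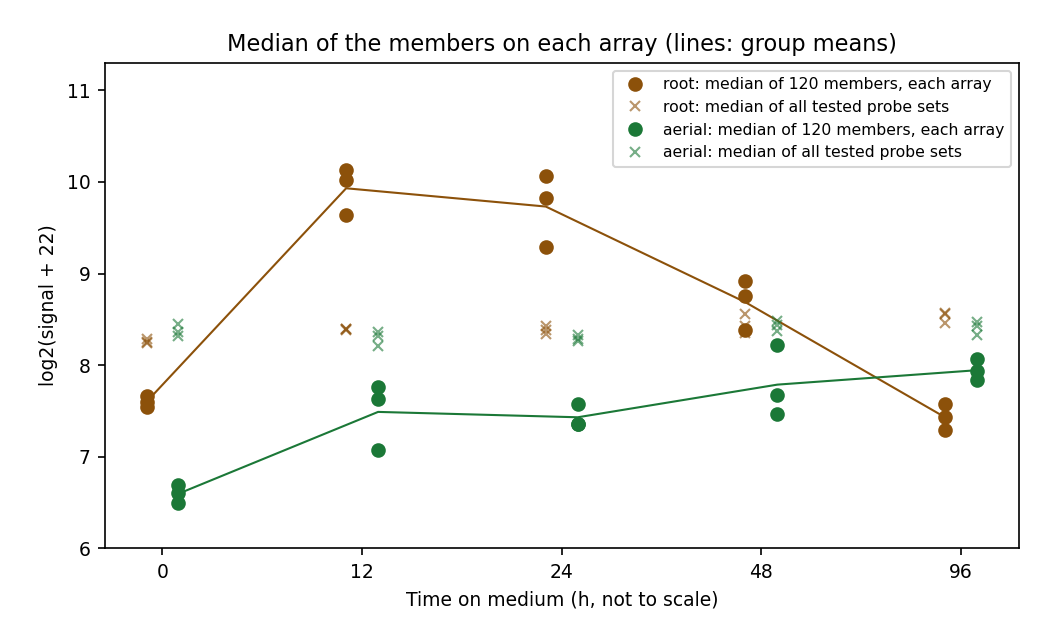
Dots give the median log2(signal + 22) of the 120 members on each of the 30 arrays against time in hours, lines join the means of the 3 arrays of a group, and crosses give the median of all tested probe sets. The root medians are 9.64 to 10.13 at 12 h and 7.29 to 7.57 at 96 h, while the aerial medians run from 6.49 to 6.69 at 0 h and from 7.84 to 8.06 at 96 h.

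Between 24 and 48 h in root explants, 27 of the 113 tested members fell and 0 rose. Over all tested probe sets 1.66% fell and 2.17% rose. The test was limma's moderated test with Benjamini-Hochberg adjustment over the 16765 probe sets, called at an adjusted p below 0.05, and an unadjusted p below 0.05 gave 67 members down and 0 up. The members' median change was -0.93 on the log2 scale, against 0.03 for all tested probe sets. Since the rule placed every member lower at 96 h than at 12 h, a decline somewhere in between was built in. The steps from 12 to 24 h and from 48 to 96 h use arrays that chose the members and were not tested. The count thus describes a fall in this step and cannot place the decline here over the other steps. The count also leaned on single arrays. It was 11 without root 24 h replicate 2, and also 11 without replicate 3 of that time. Leaving out root 48 h replicate 1 gave 10 members, leaving out replicate 3 of 48 h gave 15, and the count was 15 when the first replicates of both times were left out together.

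The same genes were then compared with 0 h in aerial explants, whose arrays the rule did not use. The members started low there. Their medians on the 0 h arrays were 6.49 to 6.69 on the log2(signal + 22) scale, against 8.31 to 8.45 for all tested probe sets. Dim probe sets have less room for a call down, and the part of this in the counts was not tested. At 12 h, 36 of the 113 tested members were higher than at 0 h and 5 were lower, against 13.5% and 13.8% of all tested probe sets. At 24 h the counts were 36 up and 5 down (all tested: 11.4% and 12.4%), at 48 h 52 up and 7 down (17.4% and 14%), and at 96 h 57 up and 8 down (26% and 18.6%). The median change of the members was 0.22 at 12 h, 0.50 at 24 h, 0.86 at 48 h and 0.98 at 96 h on the log2 scale, while the medians of all tested probe sets lay between -0.02 and 0.13. From 12 to 96 h, 36 members rose and 10 fell, against 15.3% and 10.8% of all tested probe sets. Without aerial 12 h replicate 1, the count of members that rose from 12 to 96 h was 22. The small counts of members down moved with single arrays as well. They were 3 at 12 h without aerial 0 h replicate 3, 2 at 24 h without aerial 0 h replicate 1 and 3 without aerial 24 h replicate 2, and 4 at 48 h without aerial 0 h replicate 2 or aerial 48 h replicate 1.

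Most members had their aerial maximum late. The highest aerial mean came at 96 h for 53 members, at 48 h for 22, at 24 h for 11, at 12 h for 16 and at 0 h for 18. The same count over all probe sets is not given here. Among all tested probe sets, too, more were up at 96 h (26%) than at 12 h (13.5%). For the 26 members with every aerial mean below 87.4, the time of the maximum says little. A rise at 12 h followed by a fall from 12 to 96 h was called for 7 members, AT1G10585, AER, AT2G43870, AT1G14890, UGT76E12, AT5G62280 and AT5G43190 (1.55% of all tested probe sets). By contrast 30 members were up at both 12 and 96 h (10.5%), 13 of them with a further rise from 12 to 96 h (2.15%), and 27 were up at all 4 later times (6.78%). Another 27 members were not called at 12 h and were up at 96 h (14.9%). Of the rest, 35 members were called at no aerial time (44.8%). The score computed on aerial arrays in the same way was above 0 for 18.3% of the members and for 25.6% of eligible probe sets. The 120 highest aerial scores held 8 of the 120 members (6.67%), while that aerial list takes 120 of all 13499 eligible probe sets. The 8 were AT1G10585, AER, AT2G43870, AT1G14890, UGT76E12, AT5G62280, the chitinase gene AT1G02360 and the lectin gene AT3G16530.

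**Figure D3:**
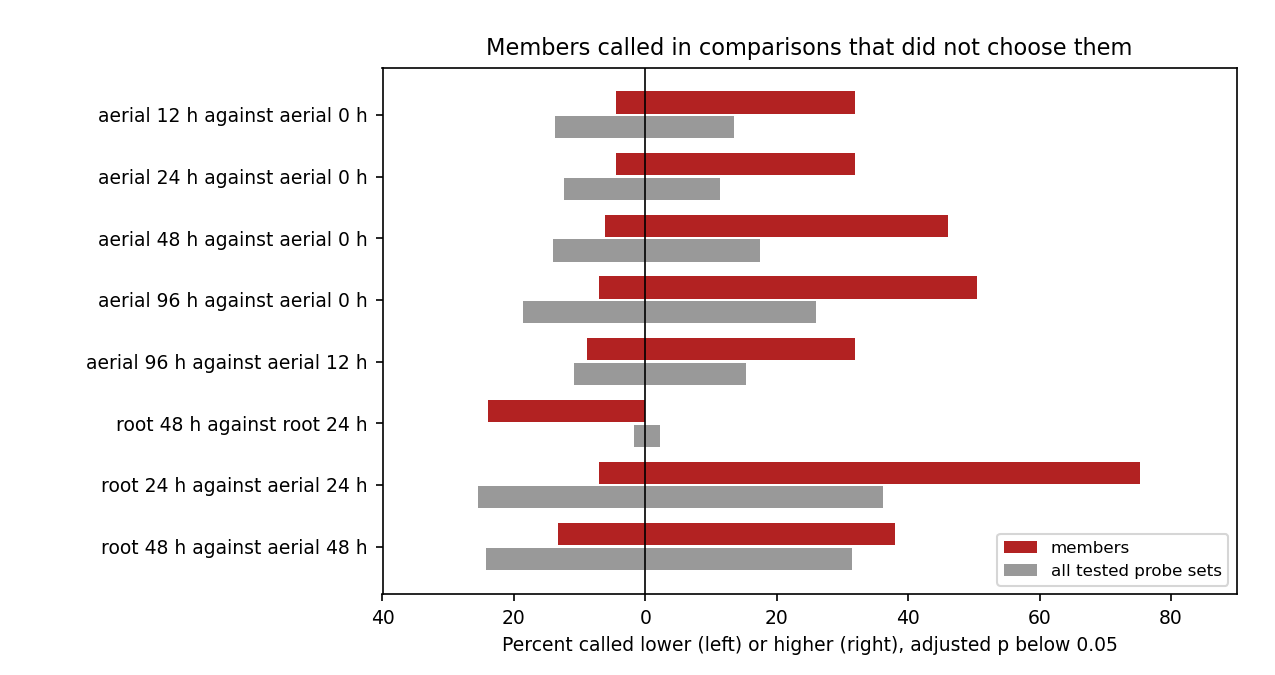
Bars give the percent of the 113 tested members (red) and of all 16765 tested probe sets (grey) called lower (left) or higher (right). Calls are at an adjusted p below 0.05 in 8 comparisons of means that include no root array of 0, 12 or 96 h. The 2 comparisons added after the values were seen are not drawn. Members are called higher in root than in aerial explants at 24 h in 75.2% of cases, and lower at 48 h than at 24 h in root in 23.9%.

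The members that were highest at 12 h in root and those highest later were also counted apart, as a description. In aerial explants at 12 h, 28 of the 81 tested members highest at 12 h and 8 of the 32 highest later were up (13.5% of all tested probe sets). Of the 81, 34 were up and 5 down in aerial explants at 96 h, with a median change of 0.83. Of the 32 highest at 24 or 48 h, 23 were up and 3 down, with a median of 1.94 (26% of all tested probe sets were up). From 12 to 96 h in aerial explants, 14 of the 81 and 22 of the 32 rose, against 15.3% of all tested probe sets, and the difference between the 2 subsets was not tested.

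Root and aerial explants were compared directly at 24 and 48 h. At 24 h, 85 members were higher in root and 8 higher in aerial explants, against 36.1% and 25.4% of all tested probe sets, and the members' median difference was 1.98 on the log2 scale. At 48 h the counts were 43 and 15 (31.5% and 24.2%), with a median of 0.60. Without root 48 h replicate 1, 9 members in place of 15 were higher in aerial explants at 48 h. At both times 43 members were higher in root (26.4% of all tested probe sets). The high root signal at 12 h chose the members, so a root signal above the aerial one at the adjoining time is partly a matter of that choice.

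The change from 24 to 48 h differed between the organs for 22 members, all with the root change below the aerial one, and for 0 in the other direction (1.62% and 1.28% of all tested probe sets). At an unadjusted p below 0.05 the same limma test gave 55 and 0. This comparison was added after the values were seen. The rule required a lower root signal at 96 h than at 12 h and set no condition on aerial arrays, so the direction of the difference was partly fixed by the choice of members. The count was 13 without root 24 h replicate 2, and the first root array of 48 h, left out, also gave 13. For 15 of the members the fall within root was itself called (0.71%). In aerial explants 6 members rose and 0 fell between 24 and 48 h (2.94% and 1.41%), with 27 and 6 at an unadjusted p below 0.05 by limma. Of the 6, 2 members, the peroxidase gene AT2G35380 and the GDSL lipase gene AT2G23540, also fell in root (0.0954%). The aerial count of 6 was 2 without aerial 48 h replicate 3, and 1 member fell without aerial 48 h replicate 1.

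Classes of proteins were assigned after the members were seen, and their counts are to be read beside the shares already given. Among all 113 tested members 57 were up in aerial explants at 96 h and 85 were higher in root at 24 h. Changes are given on the log2(signal + 22) scale, and where 1 group lies near background their size depends on the added 22.

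Transcription factors formed a small group of 3 members, all called up at all 4 aerial times. AT1G10585 encodes a basic helix-loop-helix protein. Its root signals were 133, 71.6 and 39.5 (0 h), 5178, 5994 and 4776 (12 h), 2177, 3297 and 3015 (24 h), 1115, 1169 and 1227 (48 h), then 347, 249 and 342 (96 h). Every later root array was above the 0 h arrays, and the 12 h arrays were above all others. In aerial explants it read 58.9, 50.3 and 59.7 (0 h), 839.6, 857 and 898 (12 h), 301, 132 and 325 (24 h), 185, 80.0 and 216 (48 h), then 182, 171 and 212 (96 h). The aerial maximum was thus also at 12 h, with no overlap with any other time. It rose from 0 to 12 h by 3.50 ± 0.30 (log2 change ± SE, adjusted p = 7.25e-10) and changed by -2.08 ± 0.30, adjusted p = 3.45e-06 from 12 to 96 h.

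AT5G61890, an AP2/ERF transcription factor gene that is on the list of jasmonate and wound genes, had root signals of 289.9, 300.1 and 190.0 (0 h), then 2507, 2147 and 2267 (12 h). In aerial explants it went from 52.0, 49.4 and 80.8 (0 h) to 201, 299 and 218 at 12 h and read 272, 191 and 229 at 96 h. The aerial groups at 0 and 12 h did not overlap, and the 96 h arrays lay within the range set by the 12 h arrays or just below it. The change was 1.66 ± 0.24, adjusted p = 6.91e-06 at 12 h and -0.04 ± 0.24, adjusted p = 0.928 from 12 to 96 h.

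LBD29 is an LBD transcription factor gene that auxin induces and that is known to act in lateral root and callus formation. Its root signals were 6.7, 23.6 and 67.1 (0 h), 2894, 341 and 1185 (12 h), 3504, 3017 and 1939 (24 h), 1412, 2038 and 1711 (48 h), then 230.0, 308 and 209.8 (96 h). The 3 arrays at 12 h were far apart, the mean was highest at 24 h, and the 96 h arrays were below all of the 12 h ones. Aerial signals were 7.3, 6.0 and 1.6 (0 h), 136, 208 and 199 (12 h), 305, 560.4 and 353 (24 h), 948, 1413 and 802 (48 h), then 1654, 2395 and 2001 (96 h). No 2 adjoining aerial groups overlapped. The aerial change from 0 h was 2.90 ± 0.44, adjusted p = 1.2e-05 at 12 h and 6.23 ± 0.44, adjusted p = 2.97e-12 at 96 h. The 12 h change was 5.07 with a pseudocount of 1 and 1.82 with 64. At 96 h all aerial arrays stood above every root array.

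Both RING-type ubiquitin ligase members, proteins that mark others for degradation, were up at all 4 aerial times. ATL8 read 846, 558 and 424 in root at 0 h, 2196, 4415 and 3164 (12 h), then 801, 452 and 791 (96 h), and the 12 h arrays were the highest. Its aerial change at 12 h was 1.58 ± 0.28, adjusted p = 8.41e-05, and that of AT2G42360 was 1.14 ± 0.36, adjusted p = 0.0184.

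**Figure D4:**
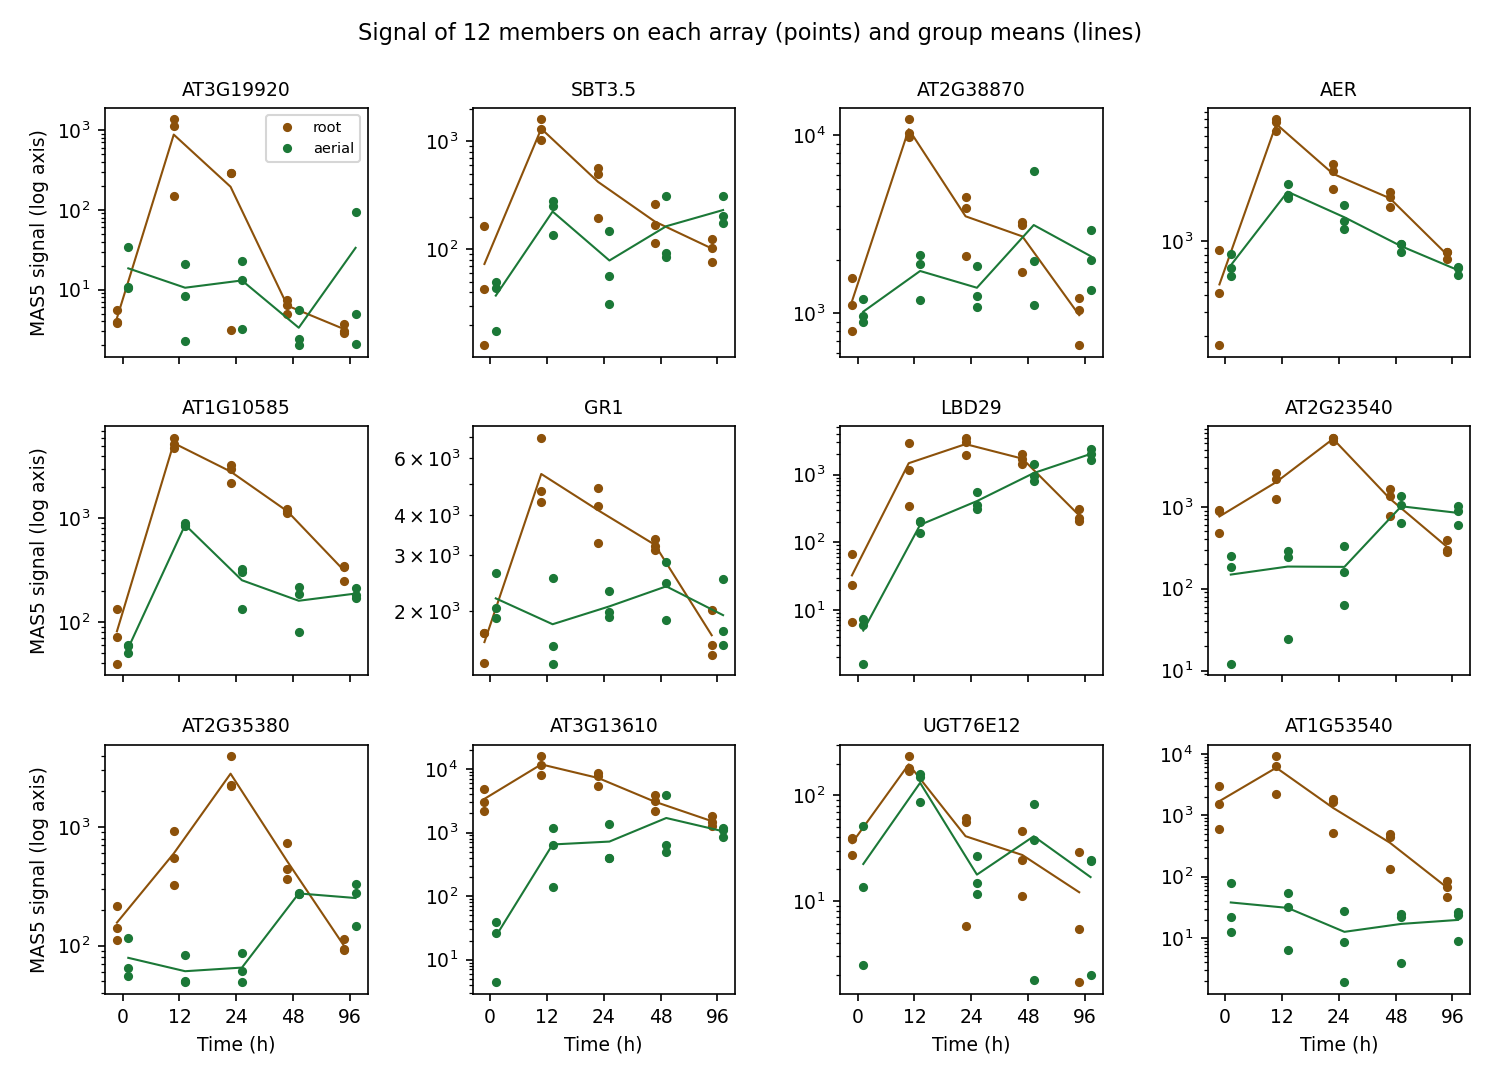
Points give the MAS5 signal (log axis) of 12 members on each array against time in hours, brown for root and green for aerial explants, and lines join group means. AT1G10585, AER and UGT76E12 stand highest at 12 h in both organs, LBD29 climbs to 96 h in aerial explants, and AT2G23540 and AT2G35380 stand highest at 24 h in root.

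The 5 members for redox control and detoxification all had their root maximum at 12 h. AER encodes a 2-alkenal reductase, which removes reactive carbonyls formed by lipid peroxidation. In root it read 858, 418 and 171 (0 h), 7520.0, 7937 and 6523 (12 h), 2429.8, 3296 and 3714 (24 h), 1798, 2118 and 2321 (48 h), then 829, 743 and 838 (96 h). The 12 h arrays were the highest and the 96 h arrays lay back within the 0 h range. Aerial signals were 805, 639.9 and 557 (0 h), 2210.3, 2652 and 2105 (12 h), then 646, 562 and 634 (96 h), again with 12 h apart from the others. The aerial rise was 1.77 ± 0.29, adjusted p = 3.35e-05 and the change from 12 to 96 h -1.88 ± 0.29, adjusted p = 1.33e-05.

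AT5G16980, the neighbouring gene of the same family, went another way in aerial explants. Its root signals were 38.5, 33.0 and 24.6 (0 h), then 202, 193 and 156 (12 h), and its aerial signals 224, 129 and 116 (0 h), 274, 173 and 117 at 12 h, and 4.3 to 46.6 at 96 h. The aerial groups at 0 and 12 h overlapped, and the gene was called down at 96 h (-2.09 ± 0.42, adjusted p = 0.000145).

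GR1, a glutathione reductase gene, and YLS5, a gene of the DJ-1 family of stress proteins, differed in the aerial explants. GR1 read 1717, 1379 and 1718 in root at 0 h, 6963, 4402 and 4737 (12 h), then 1577, 1465 and 2015 (96 h), while in aerial explants 2640.1, 1907 and 2043 (0 h), then 1372, 1562 and 2538 (12 h) overlapped (-0.30 ± 0.22, adjusted p = 0.34). YLS5 read 659.8, 937 and 920.3 in root at 0 h, 8968, 7175 and 6943 (12 h), then 1814, 2368 and 1415 (96 h). In aerial explants it rose at 12 h (1.41 ± 0.33, adjusted p = 0.00156) and was up at 96 h too (1.88 ± 0.33, adjusted p = 2.27e-05). AT5G38900, which encodes a thioredoxin-like protein of the DSBA type, was called at no aerial time.

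PRN, a pirin gene, read 763, 400.1 and 362 in root at 0 h, 8379.8, 7688 and 6034 (12 h), 1898, 3872 and 3211 (24 h), 876, 1788 and 1045 (48 h), then 1122, 1306 and 1242 (96 h). The root 12 h arrays were all above the other root arrays. The aerial signals of 67.9, 76.2 and 97.4 (0 h), then 252, 463 and 273 (12 h) did not overlap (1.74 ± 0.30, adjusted p = 5.75e-05).

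The 3 glycosyltransferases, which attach sugars to small molecules, had their root maximum at 12 h and parted in aerial explants. UGT76E12 read 38.9, 27.1 and 39.9 in root at 0 h, 172, 235 and 183 (12 h), then 5.8, 56.1 and 61.2 (24 h), so none of the 12 h height was left at 24 h. In aerial explants it read 51.0, 13.7 and 2.5 (0 h), 86.3, 148 and 159.6 (12 h), then 14.9, 11.7 and 26.7 (24 h), with the 12 h arrays above both. The aerial rise was 1.90 ± 0.49, adjusted p = 0.0038, and no later time was called. It was 3.20 with a pseudocount of 1 and 1.20 with 64. AT5G53990 had root signals of 54.8, 68.0 and 77.8 (0 h), then 1502, 1340.2 and 1454 (12 h). Its aerial change was 1.21 ± 0.39, adjusted p = 0.0212 at 12 h and 2.36 ± 0.39, adjusted p = 1.33e-05 at 96 h, but the 12 h call was lost with a pseudocount of 64 and without replicate 2 or 3 of either time. That change was 2.28 with a pseudocount of 1, 0.71 with 64 and 1.91 without aerial 12 h replicate 1. For UGT74B1, an enzyme of glucosinolate synthesis, aerial signals of 1142, 1815 and 1668 (0 h), then 834, 1414 and 1532 (12 h) overlapped (-0.31 ± 0.25, adjusted p = 0.391), and at 48 h aerial explants stood above root (-1.47 ± 0.25, adjusted p = 1.26e-05).

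Genes of coumarin and indole metabolism were 5 members, all highest at 12 h in root and all called up in aerial explants at 48 h and at 96 h. AT3G13610, which has the synonym F6'H1, encodes the feruloyl-CoA hydroxylase of scopoletin synthesis. It read 2191, 3053 and 4909.8 in root at 0 h, 15922, 7997 and 11528 (12 h), 5456, 7673 and 8539.6 (24 h), 2182, 3104 and 3873 (48 h), then 1797, 1261 and 1479 (96 h). Aerial signals were 25.8, 39.7 and 4.4 (0 h), 139, 638 and 1170.5 (12 h), 402, 399.5 and 1361 (24 h), 641, 497 and 3942 (48 h), then 1083, 861 and 1196 (96 h). The aerial 0 h arrays were near background and below all later ones, and the third 48 h array stood far above the others of its group. The aerial change was 3.56 ± 0.59, adjusted p = 3.6e-05 at 12 h and 4.63 ± 0.59, adjusted p = 1.79e-07 at 96 h.

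AT1G28680 encodes a BAHD acyltransferase of the same pathway. It read 692, 1019 and 1157 in root at 0 h, then 5097, 3793 and 4591 (12 h), and its aerial change was 0.62 ± 0.22, adjusted p = 0.035 at 12 h and 1.41 ± 0.22, adjusted p = 5.62e-06 at 96 h. AT2G04400, the indole-3-glycerol phosphate synthase gene of tryptophan synthesis, changed by 1.28 ± 0.29, adjusted p = 0.00122 at 12 h in aerial explants.

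CYP71B6, a cytochrome P450 gene of indole metabolism, read 2916, 2260.3 and 2487 in root at 0 h, 10413, 8636 and 8449 (12 h), then 1664, 1574 and 1582 (96 h). Its aerial signals of 680.3, 677 and 719 (0 h), then 903, 687 and 974 (12 h) overlapped (0.28 ± 0.29, adjusted p = 0.52), and the call came at 48 h (1.09 ± 0.29, adjusted p = 0.00468). AT1G26380, a berberine-bridge-type oxidase gene, was not called at 12 h (1.74 ± 0.67, adjusted p = 0.0516). Its 48 h aerial signals were 128, 153 and 3678, so that the third array alone stood far above the other two.

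The related oxidase gene AT1G30700 and AT1G74010, which encodes a strictosidine-synthase-like protein, climbed in aerial explants to 96 h. AT1G30700 read 5.1, 7.2 and 52.4 (0 h), 113, 228 and 249.9 (12 h), then 489, 707 and 508 (96 h), and its changes were 2.43 ± 0.43, adjusted p = 8.11e-05 at 12 h and 1.47 ± 0.43, adjusted p = 0.0104 from 12 to 96 h. The 12 h change was 3.76 with a pseudocount of 1 and 1.61 with 64. AT1G74010 read 22.3, 14.3 and 32.9 (0 h), 356, 984 and 616 (12 h), then 2291, 3276 and 2809 (96 h). Its aerial groups at these times did not overlap, and the gene rose by 3.81 ± 0.29, adjusted p = 1.55e-10 at 12 h and further by 2.16 ± 0.29, adjusted p = 1.74e-06 to 96 h. In root its signals of 5249, 4822 and 3939.5 (12 h), then 3029.5, 4430.3 and 3677 (48 h) overlapped, and those at 96 h were 769, 1321 and 734.

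Proteases and protease inhibitors were 5 members, 4 of them highest at 12 h in root. SBT3.5 encodes a subtilase, a secreted serine protease. Its root signals were 164, 43.0 and 12.9 (0 h), 1035, 1600.1 and 1294 (12 h), 197, 569 and 499 (24 h), 115, 261 and 167 (48 h), then 126, 77.1 and 103 (96 h). Aerial signals were 17.6, 44.2 and 50.2 (0 h), 136, 253 and 283 (12 h), then 31.1, 57.1 and 148 (24 h). The 12 h aerial arrays were above those of 0 h (2.04 ± 0.50, adjusted p = 0.00259), and the 24 h arrays overlapped both (0.64 ± 0.50, adjusted p = 0.387).

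AT2G38870, a protease inhibitor gene of the potato inhibitor I type, read 1587, 1114 and 802 in root at 0 h, 9826, 12323 and 10376 (12 h), 2110.3, 3932 and 4499 (24 h), then 1226, 1047 and 661 (96 h). The aerial arrays overlapped, with 1212, 893 and 966 (0 h), then 1182, 1885 and 2128 (12 h) (0.72 ± 0.41, adjusted p = 0.21). Its 12 h root arrays were above every other array given here.

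AT5G48430, an aspartyl protease gene, read 837, 1042 and 1112 in root at 0 h, 4400.0, 4990.1 and 4543 (12 h), 357, 1301 and 1203 (24 h), 31.7, 245 and 119 (48 h), then 67.2, 113 and 39.6 (96 h). It fell from 24 to 48 h (-2.75 ± 0.64, adjusted p = 0.0109), a call lost without root 24 h replicate 2 or 3 or root 48 h replicate 1. The serine carboxypeptidase-like gene scpl28 had root signals at 12 h of 1123, 156 and 496, and it was not called at 12 h in aerial explants (0.09 ± 0.50, adjusted p = 0.924) but rose by 3.19 ± 0.50, adjusted p = 1.57e-05 from 12 to 96 h.

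Defence-type members outside these families shared an aerial feature. AT1G02360, a chitinase gene, had aerial signals at 48 h of 249.7, 88.8 and 1481, AT3G16530, a lectin gene, of 1643, 859 and 9629, and BGLU27, a beta-glucosidase gene, of 6.1, 34.6 and 561. In each of them the third array was several times the others, which was also the case for AT5G48430 (286, 112 and 1367). The coumarin and indole genes AT3G13610 and AT1G26380 stood high on that array too, so it is not particular to defence genes. Without that array 43 members in place of 52 were up in aerial explants at 48 h. In root explants AT1G02360 read 1279, 1157 and 1253 (0 h), 5775, 5514 and 4146 (12 h), then 568, 1495 and 2043 (24 h), so that the 24 h arrays spanned the 0 h range again.

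Wall-modifying members included 5 genes for pectin, the gel of the primary wall. All 5, on 6 probe sets, had their root maximum at 12 h, and 4 of the 6 probe sets were up in aerial explants at 12 h. The pectate lyase gene AT5G04310 read 71.5, 59.7 and 50.6 in root at 0 h, then 792, 599.6 and 544 (12 h) on its first probe set. The other probe set read 91.6, 74.1 and 189 (0 h), then 578, 654 and 619.8 (12 h). Both probe sets gave root groups that did not overlap. Their aerial changes at 12 h were 1.13 ± 0.41, adjusted p = 0.0406 and 1.52 ± 0.37, adjusted p = 0.00253. The call of the first was lost with no filter on low signal, without aerial 0 h replicate 1, the lowest array, which gave 0.47, and without aerial 12 h replicate 2 or 3.

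AT2G43870, of the polygalacturonase family of pectin-cutting enzymes, read 111, 164 and 141 in root at 0 h, 605, 1566 and 1227 (12 h), then 27.0, 48.8 and 58.8 (96 h). In aerial explants its signals were 10.1, 55.1 and 17.4 (0 h), 114, 156 and 84.9 (12 h), then 42.3, 29.5 and 40.1 (96 h), low but separate at 12 h. It rose at 12 h (1.58 ± 0.39, adjusted p = 0.00272) and fell from 12 to 96 h (-1.22 ± 0.39, adjusted p = 0.0188). The rise was 1.01 with a pseudocount of 64. AT1G14890, an inhibitor-type gene of invertases and pectin methylesterases, read 2054, 1767 and 919 in root at 0 h, then 8250.5, 10475 and 10059 (12 h), and 1321, 1970.2 and 1758 in aerial explants at 0 h, then 7203, 7415 and 5614 (12 h). The organs overlapped at 0 h and the root arrays were the higher ones at 12 h. The aerial change was 2.00 ± 0.22, adjusted p = 1.01e-07. The polygalacturonase-family gene AT3G61490 and the pectin methylesterase gene AT5G04960 were called at no aerial time.

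GH9C1, an endo-1,4-beta-glucanase gene for the cellulose part of the wall, read 104, 66.1 and 185 in root at 0 h, 674, 535 and 1118 (12 h), then 75.5, 116 and 32.8 (96 h). Its aerial signals did not exceed 79.5 on any array, and no aerial time was called. AT2G41800, which encodes a wall protein with a DUF642 domain, was 1 of the 2 members highest at 48 h in root. Its root signals were 1399.6, 2028 and 2463 (0 h), 6268, 5467 and 6711 (12 h), 6591, 7502 and 8652 (48 h), then 748, 1624 and 1021 (96 h). Aerial signals went from 11.6, 8.5 and 10.4 (0 h) to 352, 741 and 526 (12 h), 4401, 5161 and 4797 (48 h), then 5437, 7348 and 4778 (96 h). The aerial change of 4.07 at 12 h and 7.49 at 96 h (adjusted p = 2.21e-11 and 6.84e-18) was the highest of any member at 96 h.

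Class III peroxidases, which oxidise wall phenolics, were 5 members, and 3 of them were highest at 24 h in root. AT2G35380 read 112, 139.5 and 216 (0 h), 922, 327 and 545 (12 h), 3961, 2282 and 2209.5 (24 h), 362, 731 and 443 (48 h), then 91.1, 113 and 92.9 (96 h). Its 24 h arrays were above all other root arrays. Aerial signals stayed between 49.0 and 115.7 up to 24 h and were 278, 273 and 274 at 48 h. It fell in root from 24 to 48 h (-2.42 ± 0.33, adjusted p = 2.13e-05), while the aerial change over the same interval was 1.79 ± 0.33, adjusted p = 0.00136. The difference between the organs was -4.21 ± 0.47, adjusted p = 1.42e-06.

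AT1G68850 read 2902, 779 and 1444 in root at 12 h, 5564, 3929.7 and 3322 (24 h), then 541, 488 and 595 (96 h), and AT2G37130 read 4511, 4033 and 4763 (0 h), 14664, 12623 and 14187 (12 h), then 15676, 16622 and 17915 (24 h). Neither was called at 12 h in aerial explants, and at 96 h both were up (2.92 ± 0.47, adjusted p = 8.71e-06 and 1.21 ± 0.34, adjusted p = 0.00483). The other two, AT1G30870 and AT3G49960, were highest at 12 h. AT1G30870 read 204, 228 and 461 in root at 0 h, 1507, 1022 and 2831 (12 h), then 46.4, 402 and 53.8 (96 h), and AT3G49960 read 30.8, 104 and 389 (0 h), 516, 326 and 1070.4 (12 h), then 25.6, 141 and 27.2 (96 h). The arrays of 1 time differed by several fold in both. All 5 peroxidase genes were above aerial explants at 24 h, and 4 of the 5 were up in aerial explants at 96 h, against 36.1% and 26% of all tested probe sets.

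Markers of root hair cells, in which several peroxidases are expressed, were read beside these genes. Of 3 measured root hair genes, the expansin genes EXPA7 and EXPA18, which the rule left out by name, stood high in root at 12 h. EXPA7 had mean root signals of 91.6 (0 h), 947 (12 h), 512 (24 h), 180.9 (48 h) and 68.1 (96 h). EXPA18 had 70.4 (0 h), 669 (12 h), 349 (24 h), 134 (48 h) and 77.9 (96 h). The third, SCN1, went from 1848 at 0 h to 1364 at 12 h and 4865 at 96 h. The summed signal of the 3 genes ran from 1781 to 2351 in root at 0 h, from 2238 to 3951 at 12 h and from 4600 to 5734 at 96 h, and from 1361 to 1557 in aerial explants at 12 h. The part of root hair cells in the members' course was not tested.

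Dirigent proteins guide the coupling of phenolics, and 4 members belong to them. AT3G13650 read 6662, 7548 and 5376 in root at 0 h, 16361, 18379 and 16771 (12 h), 3953, 9883 and 9096 (24 h), then 1890.2, 2202 and 1899.6 (96 h). In aerial explants it changed by 1.47 ± 0.39, adjusted p = 0.00518 at 12 h and 3.26 ± 0.39, adjusted p = 6.02e-08 at 96 h. AT2G21100 read 738, 166 and 593 in root at 12 h, 980.2, 1240.5 and 1240.4 (24 h), then 100.4, 281 and 159 (48 h), so the 24 h arrays were the highest and the 48 h arrays below them. It fell from 24 to 48 h (-2.63 ± 0.42, adjusted p = 0.000181). AT1G22900 was called at no aerial time, and AT3G13660 was not tested.

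Lipid transfer proteins, small secreted lipid-binding proteins, were 6 members. Of these, 5 were highest at 24 h in root, and all 6 were up in aerial explants at 48 and 96 h. AT4G12490, AT4G12500 and AT4G22470 had the largest aerial changes of all members at 12 h. AT4G12490 read 119, 123 and 23.1 in root at 0 h, 1476, 345 and 912 (12 h), then 2098, 1911 and 2090.1 (24 h), and in aerial explants 83.6, 149.9 and 117 (0 h), 6108, 5561 and 4330.5 (12 h), then 13614, 14107 and 9715 (24 h). The aerial arrays were above the root arrays from 12 h on. The aerial change was 5.28 ± 0.42, adjusted p = 2.82e-10 at 12 h, and root minus aerial at 24 h was -2.59 ± 0.42, adjusted p = 5.45e-06. AT4G12500 changed by 4.90 ± 0.45, adjusted p = 2.69e-09 at 12 h in aerial explants.

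AT4G22470 read 18.5, 35.5 and 41.5 in root at 0 h, 1441, 1679.8 and 2225 (12 h), then 262, 389.9 and 217 (96 h). Its aerial signals were 36.1, 90.9 and 47.3 (0 h), 817, 2314 and 2243 (12 h), then 3454, 3322 and 3761 (96 h). The 2 organs overlapped at 12 h and stood apart at 96 h, with the aerial arrays above. The aerial change was 4.42 ± 0.36, adjusted p = 4.58e-10 at 12 h.

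The lipid transfer genes AT2G48130, AT5G13900 and AT3G22620 had another course. AT2G48130 read 502, 576 and 1228 in root at 0 h, 5466, 1282 and 3109 (12 h), 3246, 5063 and 3389 (24 h), 286, 989 and 692 (48 h), then 151, 141 and 161 (96 h). Its second 12 h array was well below the other 2, and the 48 h arrays were all below those of 24 h. From 24 to 48 h in root it fell (-2.67 ± 0.46, adjusted p = 0.000553), as did AT5G13900 (-2.68 ± 0.42, adjusted p = 0.000128) and AT3G22620 (-2.45 ± 0.45, adjusted p = 0.0011). None of the 3 was called at 12 h in aerial explants, and at 96 h their aerial changes were 1.99, 2.17 and 1.30, all called.

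GDSL lipases, secreted esterases that act on lipid polyesters among other substrates, were 3 members with the same timing. AT2G23540 read 473, 888 and 926 in root at 0 h, 2610.4, 1241 and 2164 (12 h), 6857, 6969.9 and 6409.5 (24 h), 762, 1654 and 1354 (48 h), then 397, 282 and 300.2 (96 h). Its aerial signals were 12.1, 248 and 186 (0 h), 24.6, 292 and 243 (12 h), 63.6, 158 and 333 (24 h), then 629.9, 1352 and 1062 (48 h). The 24 h root arrays were above all other arrays of either organ, and the aerial arrays of 48 h above those of 24 h. The root fall from 24 to 48 h was -2.47 ± 0.60, adjusted p = 0.0146, a call lost with a pseudocount of 1 and without root 24 h replicate 2 or 3 or root 48 h replicate 1.

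AT1G74460 read 3173, 882 and 1981 in root at 12 h, 3225, 3747 and 2900.5 (24 h), then 299, 685 and 484 (48 h), and AT3G50400 read 1296, 270.3 and 955 (12 h), 1241, 1556 and 1139.6 (24 h), then 140.0, 266 and 196 (48 h). As in AT2G48130, the second 12 h array was the lowest of its group. Their falls from 24 to 48 h were -2.76 ± 0.49, adjusted p = 0.000677 and -2.61 ± 0.40, adjusted p = 0.000126. In aerial explants none of the 3 GDSL genes was called at 12 or 24 h and all were up at 96 h, by 2.77, 1.63 and 1.26.

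**Figure D5:**
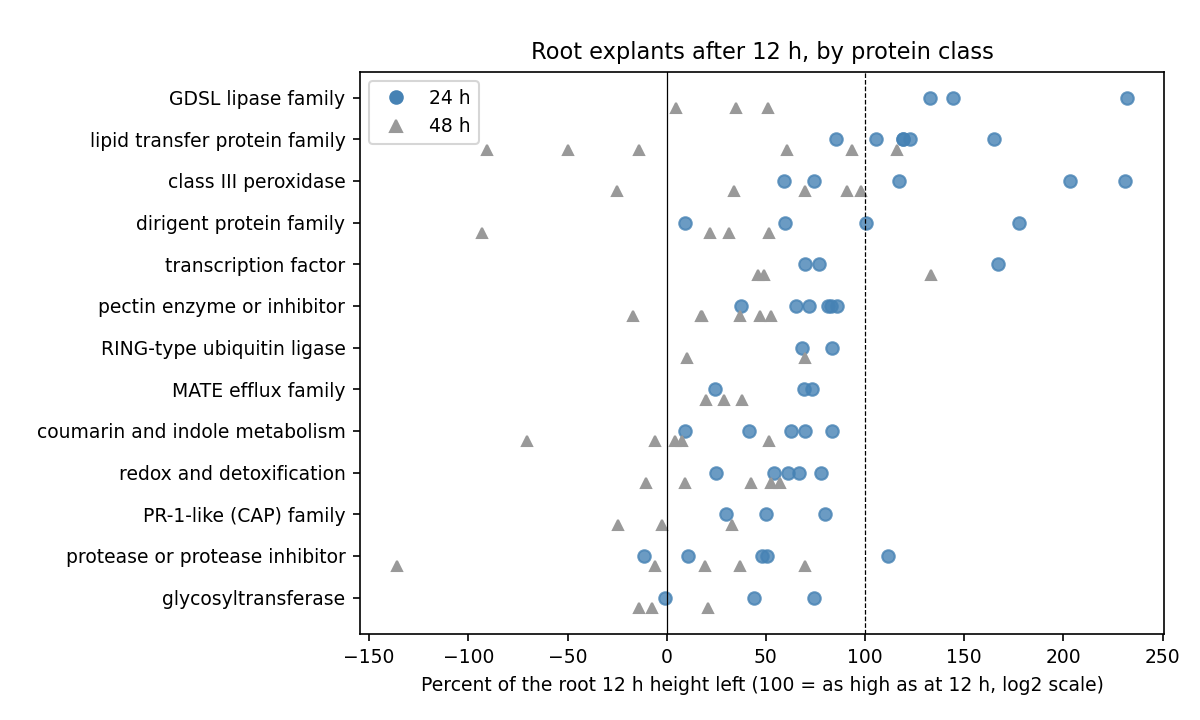
For each protein class, circles give the percent of a member's root 12 h height left at 24 h and triangles the percent left at 48 h, on the log2(signal + 22) scale, where 100 is as high as at 12 h and 0 is the higher of 0 h and 96 h. The 3 GDSL lipase members lie between 133% and 232% at 24 h, the 6 lipid transfer members between 85.3% and 165%, and the 5 redox and detoxification members between 24.7% and 77.9%.

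Some members with high scores belong to none of these families. AT3G19920 had the highest score, with root signals of 3.9, 3.8 and 5.5 (0 h), 150.0, 1357 and 1113 (12 h), 3.1, 287 and 292 (24 h), 5.0, 7.5 and 6.4 (48 h), then 2.9, 3.0 and 3.7 (96 h). The first replicates of 12 and 24 h were far below the others of their groups. In aerial explants it was above 87.4 on 1 array of 15 and was called at no time. AT2G28690 read 10.7, 98.9 and 88.2 in root at 0 h, then 1942, 562 and 808 (12 h), and its aerial change was 1.89 ± 0.40, adjusted p = 0.000617 at 12 h, or 2.85 with a pseudocount of 1 and 1.23 with 64. AT2G15780, a cupredoxin gene, read 1758, 1126 and 836 in root at 0 h, then 5879, 6518 and 5873 (12 h), and in aerial explants 7.4, 1.8 and 7.3 (0 h), then 200.3, 250.0 and 253 (12 h). Its aerial arrays were all near background at 0 h, and the change at 12 h was 3.22 ± 0.35, adjusted p = 5.03e-08. With a pseudocount of 1 it was 5.33, and with 64 it was 2.10.

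AT4G23680, of the major latex protein family, stood higher in aerial explants throughout. Its root signals were 279, 118 and 30.7 (0 h), 838, 1127 and 618 (12 h), 185, 573 and 208 (24 h), then 27.5, 8.4 and 1.1 (96 h), and its aerial signals 1849, 4465 and 3878 (0 h), then 2478, 3339 and 3585 (12 h). The organs did not overlap at any time, and root minus aerial was -4.05 ± 0.44, adjusted p = 6.55e-09 at 24 h. The aerial change at 12 h was -0.04 ± 0.44, adjusted p = 0.964, with a sign that turned when each array was centred on its median.

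Heat shock was represented by AT1G53540, a small heat shock protein gene. In root it read 2966, 1509.7 and 600.4 (0 h), 2223, 9142 and 6408 (12 h), 511, 1620.1 and 1812 (24 h), 131, 491 and 445 (48 h), then 46.3, 86.1 and 68.4 (96 h). The 0 h and 12 h arrays overlapped, and the signal was far lower at 96 h than at 0 h. Aerial signals stayed at or below 79.2 on all arrays, so that the difference of root minus aerial at 24 h (5.15 ± 0.56, adjusted p = 6.91e-09) is against a group below the filter signal and its size depends on the added 22. AT1G54890 was also far above aerial explants at 24 h (4.52 ± 0.42, adjusted p = 3.28e-10).

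A few members went down in aerial explants while they stood high in root at 12 h. AT4G33660 had aerial signals of 3503, 2798 and 2092 (0 h), then 234, 310.2 and 339 (12 h), against root signals of 334, 217 and 112 (0 h), then 379, 949 and 876 (12 h). The aerial groups were far apart, and the change was -3.14 ± 0.34, adjusted p = 6.39e-08. AT5G37990, a methyltransferase gene of the SABATH family, changed by -1.78 ± 0.52, adjusted p = 0.0108 at 12 h, a call lost without aerial 0 h replicate 3 and with a pseudocount of 1. The other three called down at 12 h were AT1G47530, an efflux carrier gene of the MATE family (-1.31 ± 0.30, adjusted p = 0.00121), AT5G61340 (-1.04 ± 0.28, adjusted p = 0.00554) and AT2G47630 (-0.67 ± 0.24, adjusted p = 0.038), the last lost under 7 of its alternatives and -0.43 without aerial 12 h replicate 1. At 96 h the 8 members down included the MATE genes AT1G47530 and AT3G21690 and the transporter gene AT1G72140. The third MATE gene, AT5G49130, was called at no aerial time.

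The 3 members just inside the list were AT1G23120, AT2G23540 and AT3G55720 with scores of 1.37, 1.36 and 1.36, and the 3 probe sets just outside were AT1G35190, AT2G01610 and AT5G65380 with 1.35, 1.35 and 1.34. Among members with a gene symbol not yet described, the aerial changes at 12 h were 0.28 ± 0.29, adjusted p = 0.503 for SGP2, a small G protein gene, -0.27 ± 0.24, adjusted p = 0.447 for UBP18, a ubiquitin protease gene, and 0.44 ± 0.60, adjusted p = 0.634 for BGLU27. The 3 members of the PR-1-like CAP family were called at no aerial time and were all above aerial explants at 24 h.

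Neighbouring genes occurred in 5 pairs, as placed by the RefSeq annotation of assembly TAIR10.1, which was used here for gene order only. They were AT2G28680 with AT2G28690, YLS5 with the protease inhibitor gene AT2G38870, AT3G13650 with AT3G13660, AT3G21690 with SGP2, and AER with AT5G16980. The probe sets of the members carry no _s_at or _x_at suffix, but close family members may still share hybridisation, as may hold for the pairs of dirigent and reductase genes.

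Gene lists of the pathways that could be at work in cut tissue were counted beside the members. For each, the number measured is that of genes read by a tested probe set of their own. Over all tested probe sets, 13.5% were up and 13.8% down in aerial explants at 12 h. Of 15 measured genes of detoxification, 9 were up and 2 down in aerial explants at 12 h, with a median of 1.36, and AER is the 1 member among them. Of 8 early auxin-response genes 7 were up and 0 down, with a median of 2.38, and LBD29 is a member. In root explants 2 others had 96 h means above their 12 h means. GH3.3, which encodes an auxin-conjugating enzyme, had mean root signals of 365.1 at 0 h, 6672 at 12 h and 10250 at 96 h, and LBD16, a relative of LBD29, of 270.8 at 0 h, 1901 at 12 h and 2166 at 96 h.

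The other lists held AT5G61890 for jasmonate and wounding, AT1G53540 for heat shock and the 2 peroxidase genes for root identity, and no further member. Of 18 ribosome biogenesis genes 11 were up and 0 down in aerial explants at 12 h. Of 4 jasmonate and wound genes 1 was up and 1 down, of 6 hypoxia genes 2 were up, of 7 heat shock genes 1 was up and 2 down, and of 2 sugar-starvation genes both were up. Of 5 mitosis and cytokinesis genes 4 were down, of 2 cytokinin-response genes both were down, and 1 ethylene gene was not called. The leaf photosynthesis genes had 5 of 7 down, and the 3 root hair genes and 4 root identity genes had 0 called at 12 h. For the list of nutrient uptake and assimilation, no tested probe set was named as 1 of its genes by the annotation used, in which 8794 of 22810 probe sets have no gene listed. These counts at 12 h stand beside 13.5% up and 13.8% down of all tested probe sets, and several lists are small. The medians and counts describe these lists, and none was tested as a set.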

How the data were processed

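Total RNA of 30 samples was hybridised to Affymetrix ATH1 arrays. The deposited values are MAS5 signal intensities on a linear scale, per the submitters' processing notes, and each array has the same trimmed mean of 500. Scanner files were not used here. For every probe set log2(signal + 22) was taken, 22 being the 20th percentile of all values. Probe sets with 3 or more arrays above 87.4, the 40th percentile, were tested. In limma 3.58.1 under R 4.3.3, 10 group means were fitted to all 30 arrays, with moderated variances that follow the mean signal (eBayes with trend, 28.6 degrees of freedom). P-values were adjusted by Benjamini-Hochberg over 16765 probe sets, and a call is an adjusted p below 0.05. A change is a difference of group means on the log2(signal + 22) scale, which understates the change of dim genes, and is given with its standard error. The number of arrays, 3 in each group, limits the precision. The spread behind each p-value is that between these samples, whose number of plants is not given.

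Genes were named from GEO's platform annotation, in which 13513 probe sets have 1 gene, 503 several and 8794 none listed. Other symbols and gene order came from the RefSeq table of TAIR10.1. The members, gene lists and tests were chosen with earlier results of these data known. Protein classes were assigned after the members were seen and serve as description. Values are named for the 15 highest scores, the largest called changes at 12 h in aerial explants (10 each way), from 24 to 48 h in root (8) and between organs at 24 h (5 each way), members on a gene list, members with a symbol and the 3 probe sets on each side of rank 120. Other genes were named after their values were seen.

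Deviations of same-numbered samples from their group means were correlated to see whether replicate numbers pair samples. All 3 correlations were over 0.1 only for aerial 12 h against 0 h, at 0.173, 0.167 and 0.169. For root 48 h against 24 h they were 0.389, 0.273 and 0.094, so a link between same-numbered arrays may hold there too. For aerial 24 h against 0 h they were 0.109, 0.09 and 0.128. The main fit held no pairing. The alternatives were other pseudocounts (1 and 64), no filter, median centring, quantile normalization, a replicate block and leaving out single arrays. Promoter motifs and protein families from annotation words were planned and not run, for want of sequence and descriptions. Tables were made with Python 3.11.15, pandas 2.3.3 and numpy 2.4.6.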

Additional observations from a re-analysis of the deposited data

Results flagged for a closer look

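The change from 24 to 48 h was tested for a difference between the organs with limma, as the root change minus the aerial change on the log2(signal + 22) scale, and 22 members were called with the root change below the aerial one (1.62% of all tested probe sets) and 0 the other way (1.28%). At an unadjusted p below 0.05 the counts were 55 and 0. The comparison was added after the values were seen, and the count was 13 when either root 24 h replicate 2 or root 48 h replicate 1 was left out. The 8 genes given here were picked for their large fall in root, which is part of this difference, so their calls largely restate that choice. AT2G23540 had a difference of -4.96, AT5G48430 of -4.33, AT1G74460 of -4.22, AT2G21100 of -3.83 and AT3G50400 of -3.44. For the lipid transfer genes it was -3.19 for AT5G13900, -3.19 for AT3G22620 and -2.98 for AT2G48130. The third aerial array of 48 h, which stood far above the others for AT5G48430, enters its difference.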

How the results depend on the processing

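Other settings were tallied for 56 pairs of a named member and a comparison. The comparisons were aerial 12 h against 0 h, root 48 h against 24 h and root against aerial explants at 24 h. Named changes in other comparisons, such as aerial 96 h against 0 h, were not tallied. Of 672 values of these pairs, 637 kept direction and side of the threshold, 25 lost their call and 10 turned sign. Of 267 counts of members, 244 stayed within 1.5 times. The causes of the moves were not tested. Leaving out single arrays, members down in aerial explants were 3 to 6 at 12 h, 2 to 4 at 24 h and 4 to 7 at 48 h, and members up from 12 to 96 h 22 to 35. Under the same setting, members down from 24 to 48 h in root were 10 to 33, members lower in root at 48 h 9 to 16, members with the lower root change 13 to 26, and members up or down from 24 to 48 h in aerial explants 2 to 9 and 0 to 1. With both first replicates of root 24 and 48 h left out, 15 fell in root. With a pseudocount of 1, 3 members were down in aerial explants at 24 h, 13 had the lower root change, 3 rose from 24 to 48 h in aerial explants, and 75 of the 120 members were selected again. With a pseudocount of 64, 1 member fell from 24 to 48 h in aerial explants. With each array centred on its median, 3 members were down at 24 h and 3 rose from 24 to 48 h in aerial explants, and the median of all tested probe sets moved by -0.16 for aerial 96 h against 12 h and by 0.13 for the difference between the organs. With the replicate block, 38 members were up and 5 down in aerial explants at 12 h, 31 fell in root from 24 to 48 h, and 28 had the lower root change. No count moved by over 1.27 times under the block, and no call among the 56 pairs changed. Uncalled aerial changes at 12 h turned sign for 3 genes. AT4G23680 (-0.04) was 0.055 with centring and -0.42 to 0.21 without single arrays. Its sign turned without aerial 0 h replicate 2 (0.21) or 3 (0.11) or 12 h replicate 1 (0.12). GH9C1 (0.12) ran from -0.11 to 0.50, and turned to -0.11, -0.09 and -0.06 without aerial 0 h replicate 3 or 12 h replicate 2 or 3. The gene scpl28 (0.09) ran from -0.32 to 0.68, and turned to -0.20, -0.23 and -0.32 without aerial 0 h replicate 1 or 2 or 12 h replicate 2. Array number and dim signal limit the rest: 26 members had every aerial mean below 87.4.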
